A study of Arabidopsis thaliana with 5 samples.

Results

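In Arabidopsis thaliana, 10 loci that feed, clamp and repackage replicating DNA were followed by locus identifier: RNR1 (AT2G21790), TSO2 (AT3G27060), RNR2A (AT3G23580), TK1A (AT3G07800), PCNA1 (AT1G07370), PCNA2 (AT2G29570), ICU2 (AT5G67100), FAS1 (AT1G65470), FAS2 (AT5G64630) and MSI1 (AT5G58230). They are 10 of the 33602 loci in the deposited tables, and all 10 were among the 20151 that passed the filter on low counts. RNA came from sorted nuclei of root tips of 0.5 cm, cut from seedlings of 5 days, in 3 libraries of the smr1 mutant and 2 of Col-0, the wild-type accession. Both genotypes held a GUS-GFP reporter under the SMR1 promoter, and 120000 GFP-positive nuclei were sorted per library after protoplasting. The nuclei are therefore those in which that promoter was active, and in smr1 the mutated gene is the one whose promoter marks the nuclei. The allele, and whether both genotypes carry the same insertion of the reporter, were not stated in the labels. Replicates are numbered 1, 2 and 4 for smr1 and 2 and 4 for Col-0, as in the labels.

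SMR1 encodes an inhibitor of cyclin-dependent kinases that promotes endoreplication, in which a nucleus copies its DNA again without dividing. Any round of copying needs deoxynucleotides, a sliding clamp and a supply of nucleosomes behind the fork. Ribonucleotide reductase, made of large and small subunits, turns ribonucleotides into deoxyribonucleotides, and thymidine kinase recycles thymidine. PCNA is the ring that holds polymerases on DNA, polymerase alpha starts new strands with its primase, and CAF-1 loads H3-H4 histones, mainly of the H3.1 type, onto PCNA-bound new DNA. In plants as in animals, genes of this kind are known targets of E2F transcription factors.

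Library totals lay between 24918795 and 26823753 reads, so the floor of detection, set at 3 reads per library, equals 0.112 to 0.1204 CPM (counts relative to library size, elsewhere after TMM scaling). SMR1 itself was at 6.02, 4.70 and 7.06 CPM in smr1 and 10.97 and 21.6 CPM in Col-0, so the 3 smr1 libraries lay below both Col-0 libraries. Its log2 fold change was -1.46 ± 0.31 (SE, standard error; edgeR adjusted p = 0.725), and -0.90 without Col-0 replicate 4. DESeq2 called it lower in smr1 (log2 fold change -1.47, adjusted p = 0.0115). The nuclei held root markers: the 6 xylem markers summed to between 1558 and 1902 CPM in smr1, against 1960.3 and 2090.3 CPM in Col-0, and the 7 endodermis markers to between 45.8 and 55.4 CPM in smr1, against 38.5 and 60.0 CPM in Col-0. The 8 markers of meristem and stem cell niche summed to between 9.41 and 16.1 CPM in smr1, against 5.32 and 13.1 CPM in Col-0, and of these RGF1 was under the floor in every library while BBM was at 0 in Col-0 replicate 4. The 5 leaf photosynthesis markers summed to between 7.98 and 31.8 CPM in smr1, against 11.96 and 22.7 CPM in Col-0. Fewer cells of a type and less RNA per cell cannot be told apart in such bulk samples.

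In 5 of the 10 genes, all 3 smr1 libraries lay above the 2 Col-0 libraries: TSO2, PCNA1, RNR1, PCNA2 and ICU2, with folds between 1.35 and 2.22. RNR2A lay lower in all 3 smr1 libraries, and TK1A, FAS1, FAS2 and MSI1 overlapped between the genotypes. Scaled by library totals only, without TMM, FAS1 and MSI1 also lay above Col-0, which made 7 of the 10, beside 19.6% of all genes tested under that scaling. No gene of the 10 passed the threshold over all genes by edgeR (adjusted p from 0.725 to 0.989), while DESeq2 called TSO2 higher in smr1 (adjusted p = 0.0201) and none of the other 9, and limma voom called 0. For comparison, 13.7% of all genes tested lay higher in all 3 smr1 libraries and 10.1% lower, and edgeR called 0.00496% of all genes higher and 0% lower. Of the 17800 genes with a DESeq2 adjusted p, DESeq2 called 0.169% higher and 0.0618% lower. With an unadjusted p under 0.05 by edgeR there were 4 of the 10 on the higher and 0 on the lower side, beside 3.96% and 2.89% of all genes. Log2 fold changes were positive for 8 of the 10, beside 51.2% of all genes. The median log2 fold change of the 10 was 0.37, against 0.01 over all genes tested.

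**Figure D1:**
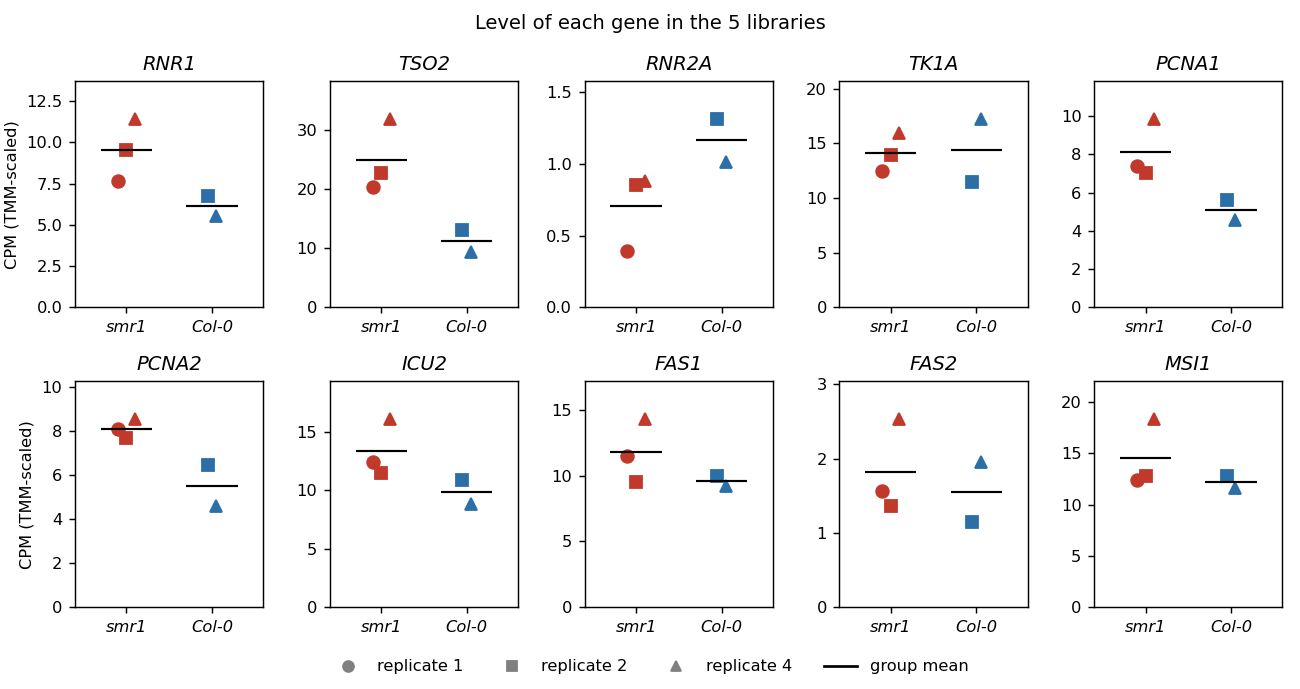
Level of each gene in CPM (linear axes from 0), one point per library, smr1 in red and Col-0 in blue, with the group mean as a bar. The red points of RNR1, TSO2, PCNA1, PCNA2 and ICU2 all lie above both blue points, those of RNR2A all lie below, and 8 of the 10 genes have their highest point in smr1 replicate 4.

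Among the 10 genes, 4 hold an E2F-type motif close to the gene start, and these stretches are shown because E2F binding is the known link between such genes and the cell cycle. The window from 250 bases before to 50 bases after each RefSeq gene start was read from TAIR10.1 and searched on both strands for TTTCCCGC, TTTGGCGC, TTTCGCGC and TTTGCCGC, and no match in these genes overlapped another. Of 27443 windows of protein-coding genes, 483 (1.76%) held at least 1 of the 4 motifs. The 6 matches stand in capitals within 30 bases of the gene's strand, written 5′ to 3′.
RNR1: cctagaagctgGCGGGAAAatcccaaaact
ICU2 first match: gcaaatggataGCGCCAAAatcgtgtcgat
ICU2 second match: atcgtgtcgatTTTCCCGCcatctccattt
FAS1 first match: aaacttgagtgGCGCCAAAcagtaaaattg
FAS1 second match: tcaaaaccttgGCGGGAAAatcaacgaccc
FAS2: ggagactactaTTTCGCGCccaaatgatcc
The RNR1 stretch lies at chr2:9293260-9293289 on the plus strand, with its motif on bases 11 to 18 of the transcribed part. Those of ICU2 lie at chr5:26776872-26776901 and chr5:26776891-26776920 on the plus strand, those of FAS1 at chr1:24324201-24324230 and chr1:24324140-24324169 on the minus strand, and that of FAS2 at chr5:25833144-25833173 on the plus strand. Counting the base before the gene start as -1, the ICU2 motifs begin at -70 and -51, those of FAS1 at -128 and -67, and that of FAS2 at -10. TSO2, RNR2A, TK1A, PCNA1, PCNA2 and MSI1 had no match to these letters in this window. Of the 4 genes with a match, RNR1 and ICU2 were higher in all 3 smr1 libraries, and FAS1 and FAS2 overlapped between the genotypes after TMM scaling.

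Of the ribonucleotide reductase genes, TSO2, which encodes a small subunit, had the largest log2 fold change, and it was the largest of all 10 genes. It lies on chromosome 3 with 2 coding exons, and its level was 20.4, 22.7 and 31.9 CPM in smr1 replicates 1, 2 and 4, against 13.1 and 9.45 CPM in Col-0 replicates 2 and 4. The lowest smr1 library stood above the highest Col-0 library by 0.64 on the log2 scale. Means were 25.03 ± 6.10 CPM in smr1 (SD, n = 3) and 11.3 ± 2.58 CPM in Col-0 (SD, n = 2), a log2 fold change of 1.15 ± 0.25 (SE; edgeR adjusted p = 0.725). With any one library left out, the log2 fold change lay between 0.92 and 1.40.

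RNR1, the large subunit, had 7.67, 9.55 and 11.4 CPM in smr1, against 6.74 and 5.55 CPM in Col-0. The groups did not overlap, and the log2 fold change was 0.64 ± 0.22 (SE; edgeR adjusted p = 0.725). RNR2A, the other small subunit gene among the 10, went the other way by value. It had 0.391, 0.851 and 0.882 CPM in smr1, from 10, 23 and 24 reads, against 1.31 and 1.01 CPM in Col-0, from 32 and 27 reads. Its 3 smr1 libraries lay below both Col-0 libraries, and the log2 fold change was -0.70 ± 0.41 (SE; edgeR adjusted p = 0.750). It was -0.42 without smr1 replicate 1, the library with 10 reads.

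**Figure D2:**
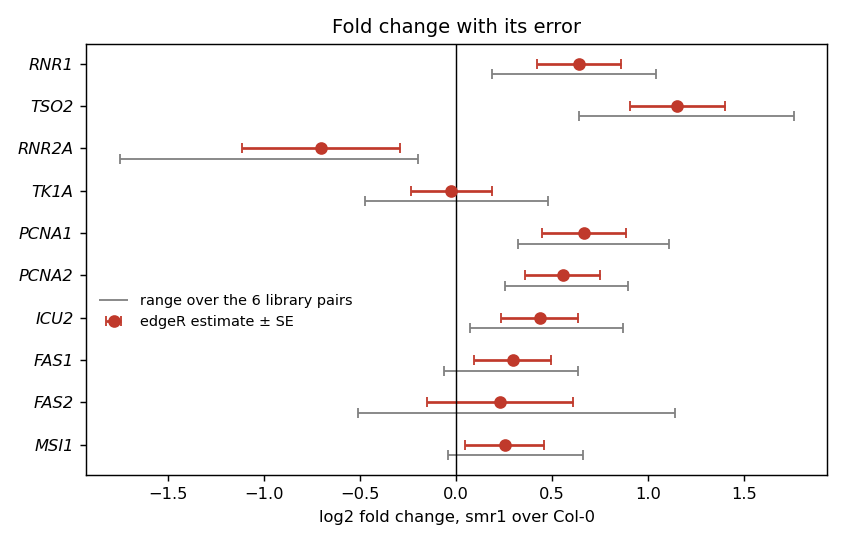
Log2 fold change of each gene, smr1 over Col-0, by edgeR with its SE (red points and bars), and below it the range of log2 differences over the 6 pairs of 1 smr1 and 1 Col-0 library (grey). All 6 pairs lie above 0 for TSO2, RNR1, PCNA1, PCNA2 and ICU2, and all 6 lie below 0 for RNR2A.

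Within a library, the balance of TSO2 and RNR2A can be read from TPM (the deposited transcript abundance per length), which does not depend on scaling between libraries. TSO2 transcripts were 53.9, 27.6 and 37.4 times as abundant as those of RNR2A in smr1 replicates 1, 2 and 4, against 10.3 and 9.64 times in Col-0 replicates 2 and 4. The RNR2A side of these ratios rests on few reads, 10, 23 and 24 in smr1 and 32 and 27 in Col-0. By these ratios TSO2 made up 98.2%, 96.5% and 97.4% of the TPM of TSO2 plus RNR2A in smr1 and 91.1% and 90.6% in Col-0. No other small subunit gene was counted. The groups did not overlap, and the mean log2 ratio was 5.25 ± 0.48 in smr1 (SD, n = 3) and 3.32 ± 0.07 in Col-0 (SD, n = 2). The difference of 1.94 had an exact two-sided permutation p of 0.1, which is the smallest that 10 splits of 5 libraries can give (0.3 adjusted over the 6 ratios tested).

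The sum of TSO2 and RNR2A also stood higher relative to RNR1 in smr1. Most of that sum was TSO2, so this ratio is not independent of the TSO2 values above. TSO2 plus RNR2A summed to 7.496, 6.80 and 7.88 times the TPM of RNR1 in smr1, against 5.90 and 5.20 times in Col-0. The 3 smr1 libraries all exceeded the Col-0 pair, and the mean log2 difference was 0.41. The exact permutation p was again 0.1, the smallest possible (0.3 adjusted over the 6 ratios tested).

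**Figure D3:**
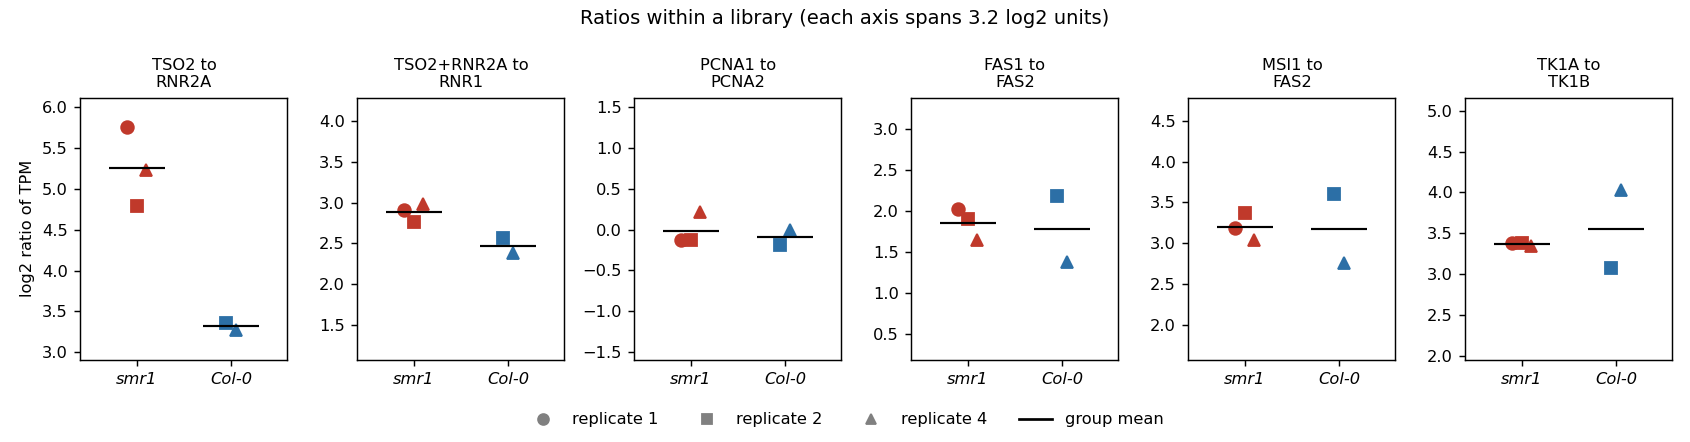
Log2 ratio of TPM between pairs of genes within each library, smr1 in red and Col-0 in blue, bars at group means; every axis spans the same number of log2 units. The groups separate for TSO2 to RNR2A (mean log2 ratio 5.25 in smr1 and 3.32 in Col-0) and for TSO2 plus RNR2A to RNR1, and overlap in the other 4 ratios.

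TK1A, a thymidine kinase of the salvage route, showed no separation. Its level was 12.4, 13.95 and 16.0 CPM in smr1, against 11.5 and 17.2 CPM in Col-0, so that both the lowest and the highest library were Col-0. The log2 fold change was -0.03 ± 0.21 (SE; edgeR adjusted p = 0.989). It was 0.29 if Col-0 replicate 4 was left out and -0.30 if Col-0 replicate 2 was, so the sign of this value rests on which Col-0 library is used. Relative to its paralogue TK1B, TK1A had 10.4, 10.4 and 10.2 times the TPM in smr1, against 8.46 and 16.4 times in Col-0 (exact permutation p = 0.7).

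Both PCNA genes stood higher in smr1 by similar amounts. PCNA1 had 7.39, 7.03 and 9.85 CPM in smr1, against 5.63 and 4.57 CPM in Col-0. PCNA2 had 8.10, 7.70 and 8.57 CPM in smr1, against 6.45 and 4.61 CPM in Col-0. In neither gene did the groups overlap. The log2 fold changes were 0.67 ± 0.22 (SE) for PCNA1 and 0.56 ± 0.20 (SE) for PCNA2 (edgeR adjusted p = 0.725 for each). That of PCNA2 was 0.32 without Col-0 replicate 4, and that of PCNA1 0.50 without smr1 replicate 4.

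The PCNA genes are close copies, so how far reads can tell them apart bears on their separate values. Their coding sequences, of 792 and 795 bases, were identical at 85.6% of aligned positions in TAIR10.1. Read length was not taken into account here. The longest stretch they share exactly is 41 bases, from coding base 442 to 482 of both genes. It is shown because a read lying within it would match both.
PCNA1 and PCNA2: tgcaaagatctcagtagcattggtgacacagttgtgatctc
Of the 762 words of 31 bases in PCNA1, 11 also occur in PCNA2. TSO2 and RNR2A, at 65.1% identity, share no such word, and their longest common stretch is 13 bases. PCNA1 made up 47.8%, 47.9% and 53.6% of the TPM of the pair in smr1, against 46.7% and 49.9% in Col-0. The log2 ratio of PCNA1 to PCNA2 thus overlapped between the genotypes, with a difference of 0.08 (exact permutation p = 0.8).

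ICU2 encodes the catalytic subunit of DNA polymerase alpha and has the longest coding sequence of the 10, 4575 bases in 30 coding exons. It had 12.4, 11.4 and 16.1 CPM in smr1, against 10.9 and 8.81 CPM in Col-0. The lowest smr1 library exceeded the highest Col-0 library by only 0.07 on the log2 scale. The log2 fold change was 0.44 ± 0.20 (SE; edgeR adjusted p = 0.729), and 0.28 without smr1 replicate 4 or without Col-0 replicate 4.

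After TMM scaling, none of the 3 CAF-1 subunits separated the genotypes. FAS1, the large subunit, had 11.5, 9.51 and 14.3 CPM in smr1, against 9.94 and 9.22 CPM in Col-0, so smr1 replicate 2 lay between the Col-0 libraries. Its log2 fold change was 0.30 ± 0.20 (SE; edgeR adjusted p = 0.777), and 0.13 without smr1 replicate 4. MSI1, a WD40 protein that also serves in Polycomb complexes, had 12.4, 12.8 and 18.3 CPM in smr1, against 12.8 and 11.6 CPM in Col-0. Only smr1 replicate 4 stood clear of Col-0, and the log2 fold change of 0.25 (SE 0.21, edgeR adjusted p = 0.821) was 0.05 without that library. Scaled by library totals only, the lowest smr1 library stood just above the highest Col-0 library in both genes, at 9.58 CPM in smr1 against 9.48 CPM in Col-0 for FAS1, and 12.8 CPM in smr1 against 12.2 CPM in Col-0 for MSI1.

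FAS2, the middle subunit, was the lowest of the 3 CAF-1 genes and the most uneven. It had 1.56, 1.37 and 2.54 CPM in smr1, from 40, 37 and 69 reads, against 1.15 and 1.95 CPM in Col-0, from 28 and 52 reads. The log2 fold change was 0.23 ± 0.38 (SE; edgeR adjusted p = 0.921). It was 0.65 if Col-0 replicate 4 was left out and -0.10 if Col-0 replicate 2 was.

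FAS2 was also the only one of the 10 with reads spread over several transcript models. The second of its 3 models, of 1464 bases, took 91.3%, 78.9% and 89.0% of the locus's expected reads in smr1, against 52.0% and 86.3% in Col-0. In Col-0 replicate 2 the remaining 13.4 reads were assigned to the third model, which had at most 2.39 reads in any other library. FAS1 has 2 models, and the first took at least 99.9% of its reads in every library.

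Ratios between CAF-1 subunits overlapped between the genotypes. FAS1 had 4.06, 3.73 and 3.11 times the TPM of FAS2 in smr1, against 4.55 and 2.60 times in Col-0. MSI1 had 9.11, 10.4 and 8.23 times the TPM of FAS2 in smr1, against 12.1 and 6.75 times in Col-0. In both ratios all 3 smr1 libraries lay between the 2 Col-0 libraries (exact permutation p = 0.9 for FAS1 to FAS2 and 1.0 for MSI1 to FAS2).

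Compared per length, the 10 genes spanned a wide range, and the leading gene by value differed between genotypes. TSO2 had 16.6, 18.2 and 25.1 TPM in smr1, against 9.91 and 7.35 TPM in Col-0, and TK1A had 15.4, 17.0 and 19.0 TPM in smr1, against 13.2 and 20.4 TPM in Col-0. TSO2 was thus above TK1A in 3 of 3 smr1 libraries and below it in 2 of 2 Col-0 libraries. In smr1 their means were 19.98 ± 4.50 and 17.11 ± 1.79 TPM (SD, n = 3), with ranges over the libraries that overlapped. The difference within libraries was not tested. Behind them came MSI1, PCNA1 and PCNA2, with means of 8.70 ± 1.83, 8.62 ± 1.48 and 8.62 ± 0.375 TPM in smr1 (SD, n = 3), which did not differ beyond their spread, and 7.003 ± 0.363, 5.22 ± 0.656 and 5.63 ± 1.21 TPM in Col-0 (SD, n = 2). FAS1, RNR1 and ICU2 followed at 3.42, 2.77 and 1.999 TPM in smr1 and 2.66, 1.70 and 1.41 TPM in Col-0. FAS2 and RNR2A were lowest, at 0.963 and 0.547 TPM in smr1 and 0.799 and 0.863 TPM in Col-0, and in Col-0 these last did not differ beyond their spread.

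Across libraries, smr1 replicate 4 held the highest level of 8 of the 10 genes, beside 26.7% of all genes tested. The related lists described further on had their highest level there too in many genes: all 5 H3.1 genes, all 6 MCM helicase genes, 17 of 29 polymerase and clamp genes, 9 of 19 nucleotide supply genes and 7 of 15 histone chaperones. Among the 10, Col-0 replicate 4 held the lowest level of 7 of the 10. The mean over the 10 genes of log2 CPM, each gene centred over the 5 libraries, was -0.07, 0.03 and 0.44 in smr1 replicates 1, 2 and 4, against -0.15 and -0.26 in Col-0 replicates 2 and 4. Without smr1 replicate 4, the median log2 fold change of the 10 was 0.20, against 0.37 with all libraries.

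**Figure D4:**
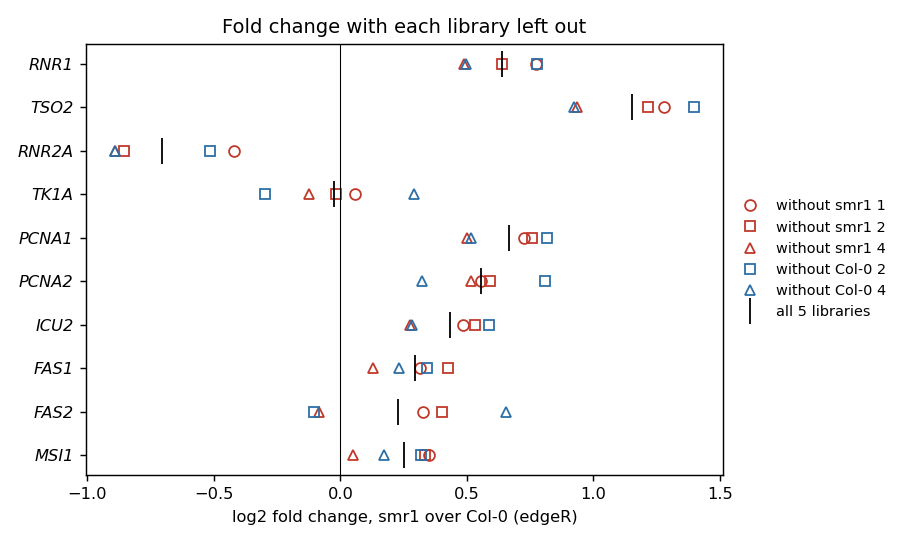
Log2 fold change of each gene, smr1 over Col-0, with all 5 libraries (black bar) and with each library left out (open symbols; red, an smr1 library left out; blue, a Col-0 library left out). TSO2, RNR1, PCNA1, PCNA2, ICU2, FAS1 and MSI1 stay above 0 and RNR2A below 0 in all 5, while FAS2 and TK1A fall on both sides.

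Cell type markers moved unevenly beside these values. The level of the meristem list, on the same centred log2 scale, was 0.15, 0.68 and -0.05 in smr1 replicates 1, 2 and 4, against 0.18 and -0.95 in Col-0 replicates 2 and 4. Of its 5 tested members 4 were positive, with a median log2 fold change of 0.82, beside 0.37 for the 10 genes. In 3 of the 5, all 3 smr1 libraries lay above both Col-0 libraries, beside 13.7% of all genes tested. At an unadjusted edgeR p under 0.05, 2 were higher and 0 lower, beside 3.96% and 2.89% of all genes. Col-0 replicate 4 was lowest both for this list and for the 10 genes, while the highest was smr1 replicate 2 for this list and smr1 replicate 4 for the 10 genes. Of the 6 xylem markers, 5 had negative log2 fold changes, and all 6 root hair markers did, while 51.2% of all genes were positive. In all 3 smr1 libraries, 4 xylem markers lay below both Col-0 libraries and 1 lay above. For root hair these counts were 2 and 0, beside 10.1% and 13.7% of all genes. All 4 root cap markers were positive (median 0.41), and 3 lay above Col-0 and 0 below. Of the 4 phloem markers 2 were positive, and of the 7 endodermis markers 4 were. Of the 5 leaf photosynthesis markers 4 were positive, and LHCB2.1 was at 0 in smr1 replicate 4 and Col-0 replicate 4. The part of these markers in the differences was not tested.

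Beyond the 10 genes, other genes of the same steps were counted from lists by function, chosen with earlier results of these data known. Their counts and the shares over all genes are therefore description only. Of their 82 genes edgeR and limma voom called 0, with 19 higher and 0 lower in smr1 at an unadjusted edgeR p under 0.05, beside 3.96% and 2.89% of all genes tested. DESeq2 called 2 of the 82, NAP1;1 and AT5G10400, higher, beside 0.169% of the 17800 genes with a DESeq2 adjusted p. Counts of genes above or below Col-0 in these lists stand beside 13.7% and 10.1% of all genes tested. Of the 29 genes of polymerases, clamp loading, ligation and single-strand binding, 25 had positive log2 fold changes, 13 lay higher in all 3 smr1 libraries than in the Col-0 pair and 0 lay lower, with a median of 0.33. That median was 0.53 if Col-0 replicate 2 was left out and 0.17 if Col-0 replicate 4 was. RPA1B, of replication protein A, had 0.69 ± 0.22 (SE), and AT5G26680, an exonuclease family gene, had 0.91 ± 0.33 (SE; edgeR adjusted p = 0.725 for each); without Col-0 replicate 4 the second was 0.55. The polymerase alpha partner POLA2 was at 0.78 (0.47 without Col-0 replicate 4), and RFC1, the large subunit of the clamp loader, at -0.00030; these 2 were named after their values were seen.

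Other genes of nucleotide supply were mixed in sign. Of the 19 tested of 20, 14 were positive and 5 negative, 6 lay above and 2 below Col-0 in all 3 smr1 libraries, and the median log2 fold change was 0.17 (0.11 without Col-0 replicate 4 or without smr1 replicate 1). The 2 with the smallest p are isoforms of one enzyme of purine synthesis, glutamine phosphoribosyl pyrophosphate amidotransferase, and differed in sign. ASE1 had 0.939, 0.925 and 1.58 CPM in smr1, against 0.739 and 0.225 CPM in Col-0, and ASE2 had 2.07, 3.55 and 3.16 CPM in smr1, against 5.997 and 3.75 CPM in Col-0. The groups overlapped in neither gene, with log2 fold changes of 1.26 (SE 0.55) and -0.73 (SE 0.31) and an edgeR adjusted p of 0.725 for each. Both sizes rest on single Col-0 libraries: ASE1 stood at 2.32 if Col-0 replicate 2 was left out and at 0.63 if Col-0 replicate 4 was, and ASE2 at -0.36 if Col-0 replicate 2 was.

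Among 15 histone chaperones, 11 were positive, and the list median was 0.10 (0.20 if Col-0 replicate 2 was left out and 0.062 if smr1 replicate 1 was). NAP1;1, which carries H2A-H2B, had 9.15, 8.81 and 10.51 CPM in smr1, against 5.50 and 4.24 CPM in Col-0. Its log2 fold change was 0.96 ± 0.19 (SE; edgeR adjusted p = 0.725, DESeq2 adjusted p = 0.0338). NRP1, of the same family, was at 0.75 ± 0.30 (SE), and at 0.46 without Col-0 replicate 4. All 4 other MSI1-like genes were positive, with a median of 0.32 that was 0.14 without Col-0 replicate 4 and 0.16 without smr1 replicate 4. MSI3 was at 0.46, but at 0.13 if Col-0 replicate 2 was left out and at 0.87 if Col-0 replicate 4 was. MSI4 was at 0.30, or 0.17 if Col-0 replicate 4 was left out.

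The H3.1 genes, whose product CAF-1 loads, had larger fold changes by value than the CAF-1 subunits. All 5 lay higher in all 3 smr1 libraries than in Col-0, with a median log2 fold change of 0.99, among them AT5G10400 at 1.22 (SE 0.21) and AT3G27360 at 0.78 (SE 0.17). Their summed level was 135, 128 and 192 CPM in smr1, against 83.3 and 74.1 CPM in Col-0, and near-identical H3 genes can divide reads. The 3 H3.3 genes, loaded by the HIRA complex, had a median of 0.19, with AT4G40040 at 0.20 and AT5G10980 at 0.19 (0.33 and 0.052 for AT5G10980 without Col-0 replicates 2 and 4). All 6 MCM helicase genes lay higher in all 3 smr1 libraries, with a median of 0.85, MCM5 at 0.89 and MCM6 at 0.86. The MCM median was 0.57 without smr1 replicate 4, 0.61 without Col-0 replicate 4 and 0.95 without smr1 replicate 1. The medians with all libraries are described beside the 0.37 of the 10 genes, and the differences between lists were not tested.

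**Figure D5:**
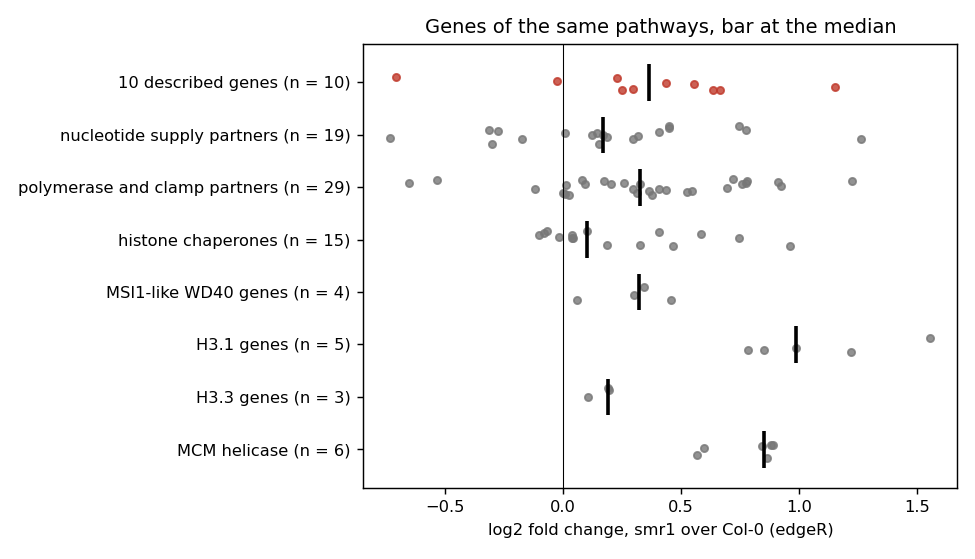
Log2 fold change, smr1 over Col-0, of each tested gene in lists of the same pathways (points), with the list median as a bar. The medians are 0.37 for the 10 genes, 0.33 for polymerase and clamp partners, 0.17 for nucleotide supply partners, 0.10 for histone chaperones, 0.99 for H3.1, 0.19 for H3.3 and 0.85 for MCM genes.

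The 5 other genes whose centred log2 CPM lay nearest to the mean profile of the 10, by Euclidean distance over the 5 libraries, were AT3G11830 (0.058), BTI3 (0.068), AT5G39800 (0.068), FKBP15-2 (0.069) and AT1G57590 (0.076). RefSeq describes AT3G11830 as of the TCP-1 chaperonin family and AT5G39800 as a mitochondrial ribosomal protein. With 5 libraries such likeness is a description of these samples.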

How the data were processed

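The authors deposited expected counts and TPM for each transcript model, under column names that Salmon uses. Per the submitters' processing notes, Salmon 0.7.2, CASAVA and TAIR10 were used, in roles those notes do not give. The strand setting is not given in the sources used here. Most model lengths (93.4%) are multiples of 3, so they are coding lengths, and 96.7% of models with an annotated locus match a coding length of RefSeq's TAIR10.1, used here for symbols and sequence with its own coordinates.

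Expected counts were summed per locus and rounded. edgeR 4.0.16 (R 4.3.3) used a minimum count of 10 and minimum total of 15, TMM, robust quasi-likelihood F tests on genotype with 3 residual degrees of freedom, and Benjamini-Hochberg adjustment over 20151 genes at 0.05. SEs come from the F statistic. DESeq2 1.42.0 (without an adjusted p for 8751 of 26551 genes), limma 3.58.1 and other alternatives were run beside it. Ratios of TPM were compared by exact permutation. The code was tested on simulated data. Chi-square per degree of freedom between libraries was at least 14.8, so none was a copy of another. The lowest values crossed the genotypes: 14.8 for smr1 replicate 2 with Col-0 replicate 2, and 17.1 for smr1 replicate 1 with Col-0 replicate 4. Pairs of smr1 libraries lay between 19.5 and 25.7, and the 2 Col-0 libraries at 43.8. By this measure the libraries did not group by genotype. The design text calls the samples biological replicates. Intervals of detection cover counting error only. Genes named were the 10 members, SMR1, in each list those past the threshold or otherwise the 2 with the smallest p, and the 5 nearest profiles; beside this rule stand TK1B, the partner in a ratio, the markers RGF1, BBM and LHCB2.1, listed at or near 0, and POLA2 and RFC1, chosen after their values were seen. The members and lists were chosen with earlier results of these data known.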

Additional observations from a re-analysis of the deposited data

How the results depend on the processing

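Over all genes edgeR called 1 gene, 3 with no expression filter and 2 with the replicate number as a block; DESeq2 called 41, limma voom 0, and edgeR 0 without any one library. In the 82 genes of the other lists DESeq2 called 2 higher, against 0 by edgeR, beside 0.169% (DESeq2, of genes with an adjusted p) and 0.00496% (edgeR) of all genes. Of the 10 genes, DESeq2 moved TSO2 past the threshold (log2 fold change 1.13). TK1A changed sign with library totals only (0.028), with the replicate block (0.082) and between -0.30 and 0.29 without single libraries, and FAS2 lay between -0.10 and 0.65 without single libraries. The median of the 10 lay between 0.20 and 0.48 without any one library. The count of the 10 above Col-0 was 7 with library totals only and 5 with TMM, RLE size factors, no expression filter or the first model of each locus. The median of the histone chaperones was 0.17 with library totals only and 0.063 with the replicate block, and that of nucleotide supply 0.11 with the block. The log2 difference in PCNA1 to PCNA2 lay between -0.027 and 0.18, in FAS1 to FAS2 between -0.33 and 0.48, in MSI1 to FAS2 between -0.40 and 0.45 (-0.0010 with counts in place of TPM), and in TK1A to TK1B between -0.66 and 0.29 without single libraries. TSO2 to RNR2A stayed between 1.69 and 2.17, and TSO2 plus RNR2A to RNR1 between 0.32 and 0.50. Where a fit leaves 1 Col-0 library, that library is assumed to vary like smr1. Same-numbered libraries had correlated deviations from their group means, of 0.40 and 0.19 for replicates 2 and 4. The labels tie the numbers to no shared batch or day. The 2 Col-0 deviations are exact opposites of each other, so these correlations are not independent and do not settle it. FAS2 was not tested with only the first model of each locus. RNR2A and FAS2, with 10 to 69 reads, are limited by depth.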
